A study of Diospyros kaki with 21 samples.

Results

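The unigenes described here encode proteins of the photosynthetic membrane and the small subunit of Rubisco in flesh of 'Jingmianshi' persimmon (Diospyros kaki) fruit. A unigene is a transcript assembled from the reads without a genome, named by its cluster and without a chromosomal position. Members were chosen by annotation alone: a Pfam entry for the chlorophyll a-b binding domain, or an NR (NCBI protein) description with photosystem I (36 unigenes), photosystem II (46), oxygen-evolving enhancer (15) or ribulose bisphosphate carboxylase small (17). The Pfam entry matched 0 unigenes, so all 114 members, of 261970 unigenes, came from their NR description. By role they were 20 nuclear-encoded subunits of photosystem I, 14 nuclear-encoded subunits of photosystem II, 13 proteins of the oxygen-evolving complex, 19 assembly and repair factors of photosystem II, 17 unigenes of the Rubisco small subunit, 11 and 8 plastid-encoded subunits of photosystems I and II, 2 antenna proteins of photosystem I, 2 Ycf1 fragments and 8 unigenes whose only name is the NR description.

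RNA-seq covered 7 groups with 3 libraries each (replicates A, B and C): CK fruit sampled on 0 d, 1 d and 4 d, and fruit under CO2 or CO2+1-MCP sampled on 1 d and 4 d. CK fruit were closed in air-tight containers with air for 1 d, CO2 fruit with a high concentration of CO2, and CO2+1-MCP fruit with the same CO2 plus 1-methylcyclopropene, a blocker of ethylene perception, before all were held in air. CK fruit share the sealing and the storage with the treated fruit, and CK 0d is the only untreated group. No source used here gives the number of fruit behind a library, so p-values measure the spread between these libraries.

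Photosystem II splits water at a manganese cluster that the extrinsic proteins PsbO, PsbP and PsbQ shield, and passes electrons through its reaction centre of D1 and D2 with the inner antennae CP43 and CP47. Photosystem I, around the PsaA and PsaB proteins, passes them on to ferredoxin through a stromal ridge that holds PsaD and PsaE, and Rubisco fixes CO2 with the products. The plastid genome encodes the reaction centres and the large subunit of Rubisco, and the nucleus encodes most peripheral subunits, the antenna proteins and the small subunit. Mature fruit usually lose chlorophyll and thylakoids while plastids turn into chromoplasts.

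Total counts per library lay between 14644843 and 24943140 (median 18150327). Of unigenes named for fruit flesh (anthocyanidin reductase and expansin), 80 of 81 had counts, with a summed level of 1813.5 to 15159 FPKM (fragments scaled for unigene length and library depth) per library. Of those named for peel epidermis (wax and cutin synthesis) 46 of 47 had counts, with 53.4 to 276 FPKM, and of those named for seed 24 of 24, with 45.9 to 74.2 FPKM. Peel unigenes were highest in CO2 4d (147 to 276 FPKM, against 61.2 to 63.3 in CK 4d), and flesh unigenes were lower in CO2 1d (2583.0 to 3773.3) and CO2+1-MCP 1d (1813.5 to 2127.8) than in CK 1d (6368.1 to 7776.9), and higher in CO2 4d (6355.1 to 15159) than in CK 4d (5334.2 to 6253.9). The part of these shifts in the members' values was not tested. In bulk flesh, fewer cells of a type and less RNA per cell cannot be told apart.

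Outside the plastid-encoded roles, a group of 34 members had a best nucleotide hit in another plant genus with a score of at least 0.8 of the unigene's own length. The largest value of this ratio over all unigenes was 1. Plastid-encoded members, such as psbA and psaA, were left out of this screen whatever their score. In 14 of them the score equalled the length. None belonged to the cluster that holds most other members (69 of 114 are in Cluster-16487), and they were 10 Rubisco small subunit unigenes, 10 and 9 nuclear-encoded subunits of photosystems II and I, and 5 oxygen-evolving complex unigenes. The 21 members with a hit in Solanum had 739 counts over all libraries, of which 634 (85.8%) were in CO2+1-MCP 4d A and 30 in CO2+1-MCP 4d C. The 3 with a hit in Nicotiana had 74 of their 84 counts in CK 1d B, and the 6 with a hit in Oryza had 44 of their 72 counts in CO2+1-MCP 1d B. The 4 with a hit in Gossypium had counts only in the 7 C libraries, 5 to 25 in each. Over all unigenes of the table with such a hit in Solanum (560), CO2+1-MCP 4d A held 167 CPM (counts scaled to the library total). The 7 C libraries held 50.1 to 101 CPM of them, and the other A and B libraries 3.80 to 9.97 CPM. The C libraries thus stood apart for both the Solanum and the Gossypium hits. The source of these reads was not tested. None of the 34 passed the low-count filter of any of the 8 comparisons, so no call below involves them.

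**Figure D1:**
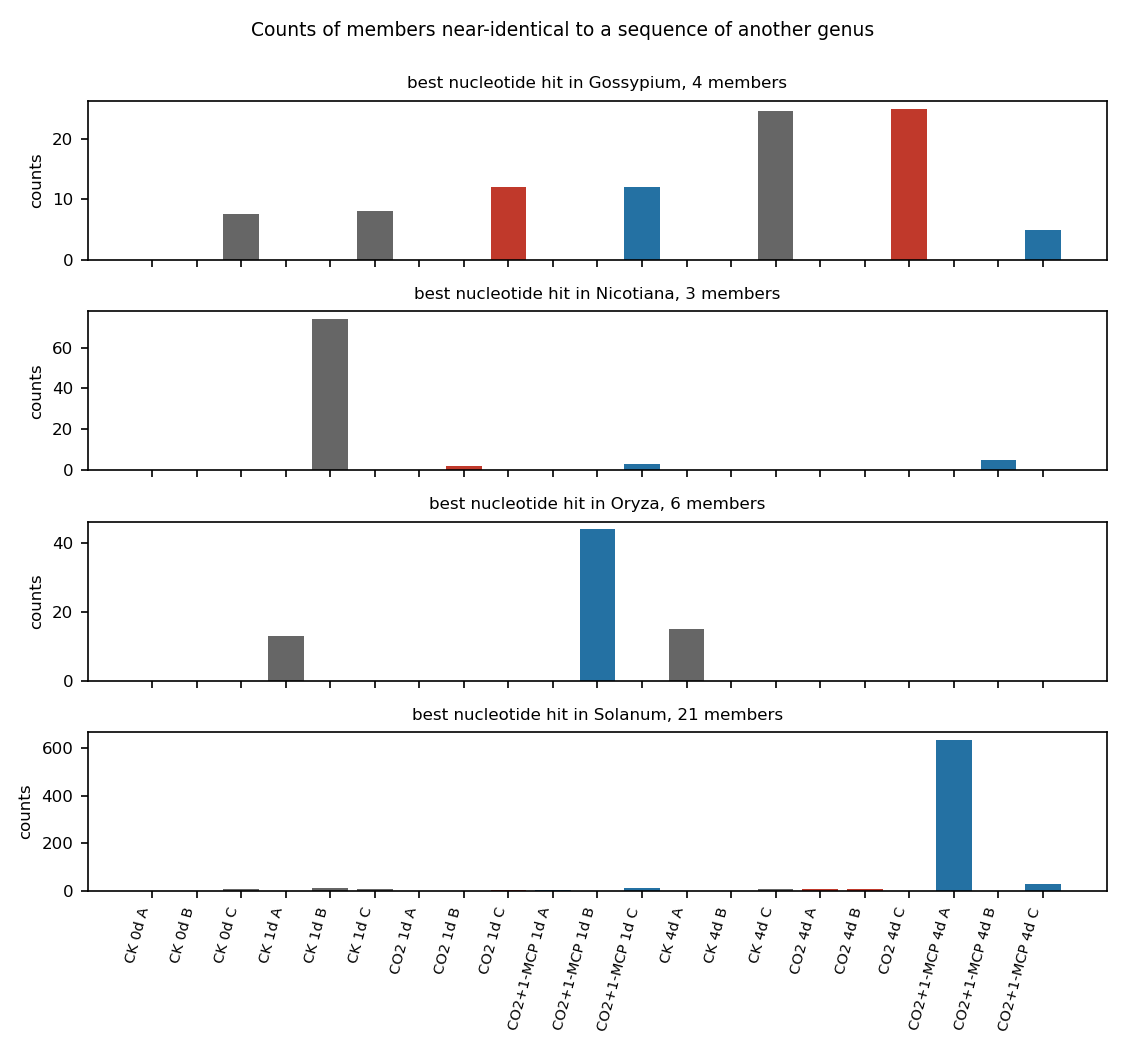
Summed counts (y axis, linear) of the 34 members near-identical to a sequence of another genus, in each of the 21 libraries (x axis), 1 panel per genus, with CK in grey, CO2 in red and CO2+1-MCP in blue. Single libraries hold most counts for Solanum (634 in CO2+1-MCP 4d A), Nicotiana and Oryza, while the Gossypium counts are in the C libraries.

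Most members were scarce. Of the 114, 113 had counts, 35 had a mean of at least 10 counts per library and 43 passed the low-count filter in at least 1 of the 8 comparisons, where 20 were called at least once. The remaining 71 were not tested. A member that passed the filter only because it was high in a single group had to differ there, so the counts below do not speak for all members. Many proteins are also split over several unigenes that share reads, and the reads of such copies cannot be told apart with certainty. The members' summed level was highest in CO2 1d, with 540 ± 46 FPKM (SD, n = 3), and CK 1d had 501 ± 74. CO2+1-MCP 4d had 399 ± 56, CO2+1-MCP 1d 395 ± 48, CK 0d 351 ± 30, CK 4d 330.5 ± 9.9 and CO2 4d 318 ± 50. The libraries of neighbours in this order overlapped, except between CK 1d (456 to 587 FPKM) and CO2+1-MCP 4d (335 to 435). In CO2+1-MCP 4d the sum includes the unigenes with a Solanum hit, and without the 34 it was 364 ± 53. The Rubisco small subunit made up 283 FPKM of the mean sum in CO2 1d and 180 in CK 1d. Nuclear-encoded subunits of photosystems I and II had lower means in CO2 1d (51.5 and 26.5) than in CK 1d (86.0 and 54.7). So had the oxygen-evolving complex (72.1 against 129), though its libraries and those of photosystem I overlapped. Assembly and repair factors (47.3 against 20.2) and plastid-encoded subunits of photosystem II (34.0 against 1.36) were higher.

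The most abundant member was Cluster-16487.105600, a Rubisco small subunit unigene (rbcS), with 41.8 to 251 FPKM. The next were psbO (Cluster-16487.107008), a manganese-shielding protein, with 2.51 to 110 FPKM, psbY (Cluster-16487.72981), a small membrane subunit of photosystem II, with 8.35 to 79.8 FPKM, and psaE (Cluster-16487.112487) with 5.53 to 42.8 FPKM. Of the 35 members with a mean of at least 10 counts, 15 had their highest group mean in CO2 1d and 10 in CK 1d, against 4 in CK 4d, 2 each in CO2 4d and CO2+1-MCP 4d, and 1 each in CK 0d and CO2+1-MCP 1d. Scarce members such as psbA and psbD reached that mean only through CO2 1d, so their highest group was fixed by the limit. The share of all unigenes highest in each group was not computed, and the tally is a description only.

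The first comparison asks what 1 d of high CO2 does against 1 d of sealing in air. In CO2 1d against CK 1d, 10 of 38 members tested were up-regulated, where 20.9% of all 60190 unigenes tested were, and 5 were down-regulated, where 19.6% were (40.6% in either direction). Calls are edgeR quasi-likelihood tests with a Benjamini–Hochberg adjusted p below 0.05. In number the members therefore stood near the background, and their median log2 fold change of −0.05 equalled that of all unigenes (−0.05). The 10 included all 4 plastid-encoded photosystem II unigenes tested and 3 of 5 Rubisco small subunit unigenes, and the 5 that fell were nuclear-encoded subunits or had no other annotation. Several of the 10 had few counts in CK 1d, such as psbA with 15 against 1153 in CO2 1d, and passed the filter through the group in which they were high, so these counts by role are a description only.

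Plastid-encoded transcripts of photosystem II were scarce in the controls and higher in CO2 1d. Of psbA (Cluster-16487.193722), which encodes D1, the protein that is replaced most often under light, the level was 30.8, 15.4 and 25.0 FPKM in CO2 1d A, B and C. It was 0.23, 0.57 and 0.05 FPKM in CK 1d. Each CO2 1d library was far above every CK 1d library, and in all CK and 4 d libraries the level was at most 0.60 FPKM. The log2 fold change was 6.38 ± 0.72 (SE, adjusted p = 0.0012, edgeR). For psbB (Cluster-16487.24207), which encodes CP47, the levels were 4.27, 4.67 and 5.35 FPKM in CO2 1d against 0.37, 0.53 and 0.20 in CK 1d. The groups did not overlap, with a log2 fold change of 3.63 ± 0.40 (adjusted p = 0.0011, edgeR).

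A unigene of 3652 bases with the Swiss-Prot name of CP43 and the orthology name psbD (Cluster-16487.149370) had 2.46, 2.01 and 2.99 FPKM in CO2 1d and 0.07, 0.25 and 0.07 in CK 1d. In plastid genomes psbD and psbC, the genes of D2 and CP43, lie in a shared transcription unit. Its log2 fold change was 4.24 ± 0.58 (adjusted p = 0.0023, edgeR). For psbE (Cluster-16487.196282), a subunit of cytochrome b559, the levels were 1.93, 0.77 and 2.01 FPKM against 0.22, 0.39 and 0.28. The lowest CO2 1d library, B, was still above all CK 1d libraries, and the log2 fold change was 2.33 ± 0.57 (adjusted p = 0.018, edgeR), a call lost without CK 1d A (adjusted p = 0.074), CK 1d C (0.073), CO2 1d A (0.053) or CO2 1d C (0.053). The fifth plastid-encoded unigene of photosystem II that was tested in any comparison, psbK (Cluster-16487.201823), had 1.80, 0.34 and 0.00 FPKM in CO2 1d, so its libraries disagreed, and it did not pass the filter of this comparison.

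In photosystem I the psaA unigene Cluster-16487.215170 had 2.01, 2.70 and 1.61 FPKM in CO2 1d and 0.16, 0.00 and 0.00 in CK 1d, a log2 fold change of 5.21 ± 1.13 (adjusted p = 0.011, edgeR). A longer psaA unigene (Cluster-16487.215315) had 0.89, 0.46 and 1.91 FPKM against 0.00, 0.22 and 0.25, which missed the threshold (log2 fold change 2.69 ± 1.03, adjusted p = 0.079, edgeR). Summed over all 9 unigenes with the orthology name psaA, CO2 1d had 6.18 to 7.51 CPM and CK 1d 0.81 to 0.93, with no overlap. The calls of psbA, psbB, psbD and psaA held with each library left out in turn, with the replicate letter as a block and with DESeq2. With 15, 37, 24 and 5 counts in CK 1d, psbA, psbB, psbD and psaA passed the filter through CO2 1d. For them these refits are a description and no separate support. The same holds for psbE, with 17 counts in CK 1d.

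**Figure D2:**
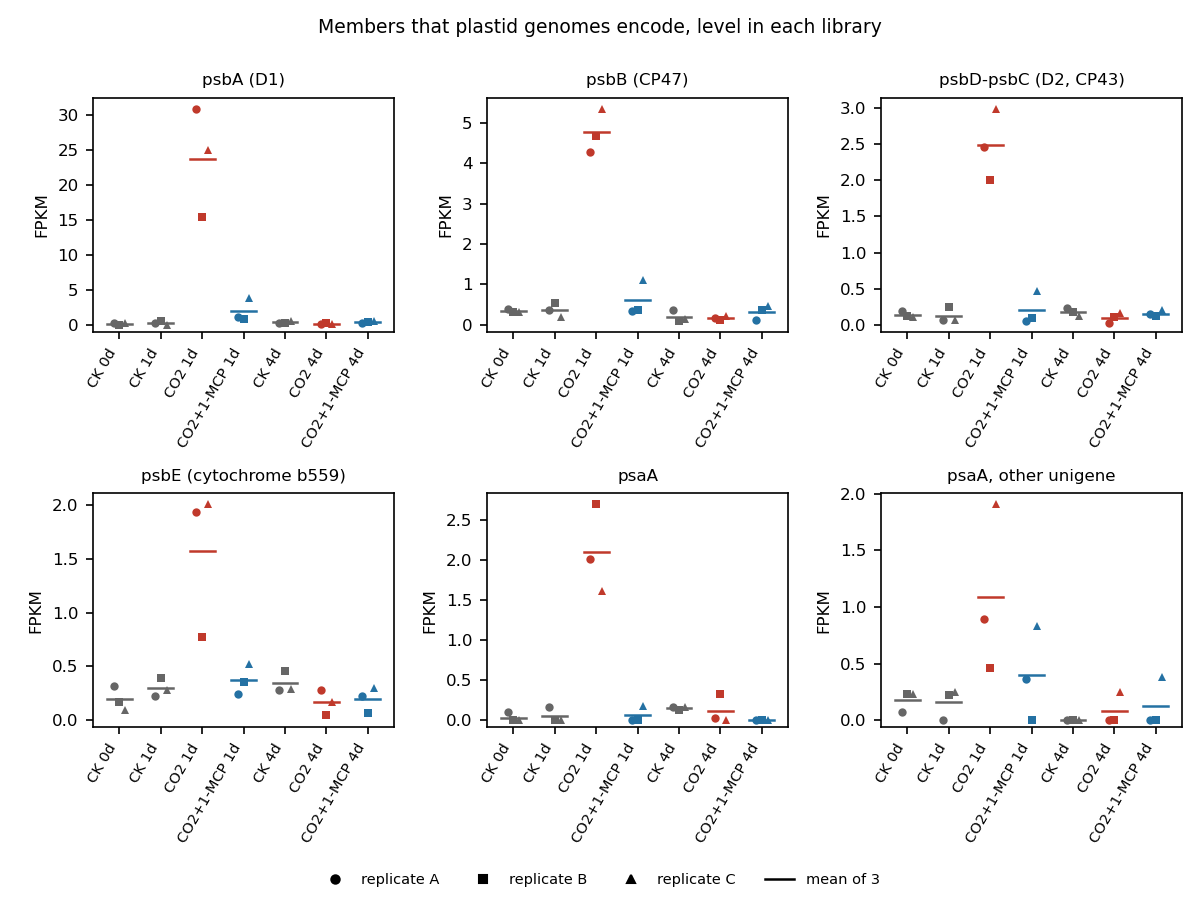
FPKM (y axes, linear, own scale per panel) of 6 plastid-encoded members in each library, by group (x axes), with symbols for replicates A, B and C and a line at the mean of 3. The CO2 1d libraries stand above all other groups for psbA (15.4 to 30.8 FPKM), psbB, psbD-psbC, psbE and the first psaA unigene, and CO2+1-MCP 1d C is the highest of its group in each panel.

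Of the Rubisco small subunit unigenes, 3 of 5 tested were called higher in CO2 1d (20.9% of all unigenes were). For Cluster-16487.115456 the levels were 23.4, 21.3 and 25.8 FPKM in CO2 1d and 10.4, 13.6 and 15.7 in CK 1d, a rise of 0.78 ± 0.18 on the log2 scale (adjusted p = 0.016, edgeR), with no overlap. Cluster-16487.114134, at 1.13, 1.86 and 1.63 FPKM against 0.58, 0.70 and 0.68, rose by 1.15 ± 0.31 (adjusted p = 0.025, edgeR). Cluster-16487.199053 had 4.19, 3.74 and 4.21 FPKM in CO2 1d and no count in any CK 1d library. Against a floor of 3 counts over the group the level was at least 24.2-fold higher (edgeR adjusted p = 0.0033). That unigene passed the filter only through CO2 1d and had to differ. The most abundant one, Cluster-16487.105600, had 251, 246 and 230 FPKM against 96.3, 190 and 132, and with a log2 fold change of 0.76 ± 0.26 its adjusted p was 0.054, although the groups did not overlap. Summed over the 7 unigenes named rbcS outside the near-identical group, CO2 1d had 206 to 217 CPM and CK 1d 110 to 154. The call of Cluster-16487.115456 was lost without CK 1d A (adjusted p = 0.054) or B (0.051), and that of Cluster-16487.114134 without any CK 1d library, CO2 1d B or CO2 1d C (0.051 to 0.084).

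Of the nuclear-encoded subunits, 2 of 6 tested of photosystem I, 1 of 3 of photosystem II and 1 of 6 of the oxygen-evolving complex fell in CO2 1d, near the 19.6% of all unigenes, and 0 rose. For psbY the levels were 13.5, 11.5 and 13.4 FPKM in CO2 1d against 42.0, 33.8 and 36.3 in CK 1d, all CO2 1d libraries lying below all CK 1d libraries. It fell by 1.59 ± 0.18 on the log2 scale (adjusted p = 0.0012, edgeR), and this call held under every left-out library and tool tried. For psaN (Cluster-16487.172830), a lumenal subunit of photosystem I, the levels were 0.39, 0.36 and 0.36 FPKM against 1.44, 2.37 and 1.91, a log2 fold change of −2.34 ± 0.44 (adjusted p = 0.0071, edgeR), which was 0.094 with all 7 groups in a single fit. With 12.7 counts against 76.2, psaN passed the filter through CK 1d, so its fall is a description only. The oxygen-evolving protein psbP (Cluster-16487.50396) had 12.6, 11.4 and 11.1 FPKM against 33.7, 17.0 and 20.7 and fell by 1.07 ± 0.30 (adjusted p = 0.028, edgeR).

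The ferredoxin-docking subunit psaD (Cluster-16487.69092) had 13.5, 14.0 and 7.14 FPKM in CO2 1d against 59.8, 15.3 and 32.9 in CK 1d. The CK 1d libraries differed among themselves by a wide margin, with A highest and B close to the CO2 1d libraries. The log2 fold change was −1.67 ± 0.55 (adjusted p = 0.049, edgeR), and without CK 1d A it was −1.08 (adjusted p = 0.14). The same library was the highest of CK 1d for psbO, which had 55.1, 39.2 and 36.0 FPKM in CO2 1d against 110, 45.0 and 77.6, with overlap and no call (log2 fold change −0.87 ± 0.38, adjusted p = 0.11, edgeR). The psaD call was also lost without CK 1d C (0.093), CO2 1d A (0.086), B (0.11) or C (0.13), and that of psbP without CK 1d A (0.055), CO2 1d B (0.099) or CO2 1d C (0.097).

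Among the assembly factors, psb28 (Cluster-16487.31377), which binds photosystem II while CP47 is inserted, had 12.5, 8.69 and 6.75 FPKM in CO2 1d against 1.38, 3.12 and 1.70 in CK 1d. It rose by 2.15 ± 0.48 on the log2 scale (adjusted p = 0.013, edgeR). The repair protein psb27 (Cluster-16487.21215, PSB27-H1) had 19.9, 8.61 and 3.50 FPKM against 3.14, 2.20 and 3.35, with an adjusted p of 0.064 (edgeR, log2 fold change 1.91 ± 0.68). A second psb27 unigene, Cluster-16487.195765, had 0.00, 4.46 and 10.3 FPKM in CO2 1d A, B and C, the reverse order of the first. Summed over both unigenes, CO2 1d had 7.72 to 11.6 CPM and CK 1d 1.27 to 1.95, with no overlap. For the related PSB27-H2 (Cluster-16487.127315), which takes part in the maturation of D1, the levels overlapped, 7.06, 7.32 and 6.26 FPKM against 7.65, 6.11 and 6.08 (log2 fold change 0.01 ± 0.23, adjusted p = 0.97, edgeR). The antenna unigene with the orthology name LHCA5 (Cluster-16487.210060) had 1.34, 0.85 and 0.91 FPKM against 0.00, 0.15 and 0.00 and was called (adjusted p = 0.019, edgeR). It rested on 39 counts against 2, a ratio of 22.8 per library total (exact 95% counting interval 5.91 to 195). The interval covers counting error only and not the spread between libraries. As this unigene passed the filter only through CO2 1d, it had to differ. With all 7 groups in a single fit the calls of LHCA5 (adjusted p = 0.11), psb28 (0.092) and psbP (0.057) were lost. Without CK 1d C psb28 reached 0.056, and LHCA5 was lost without each library but CK 1d B, at 0.056 to 0.078.

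**Figure D3:**
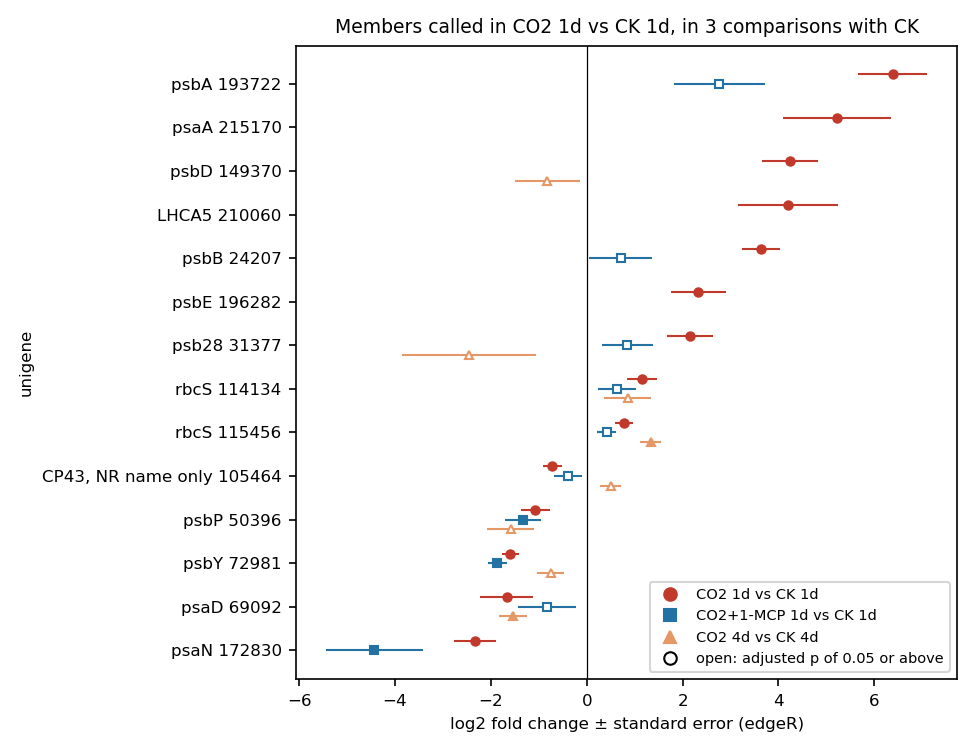
Log2 fold change with its standard error (x axis, edgeR) of 14 of the 15 members called in CO2 1d against CK 1d (y axis), beside their values in CO2+1-MCP 1d against CK 1d and CO2 4d against CK 4d where tested, with filled symbols for calls. The rbcS unigene without a CK 1d count is left out. The plastid-encoded unigenes lie at 2.33 to 6.38 in CO2 1d, and psbP and psbY lie below 0 in all 3 comparisons, which share CK libraries within a day.

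With 1-MCP added to the CO2, 1 of 32 members tested was up-regulated at 1 d against CK 1d (18.5% of 59566 unigenes were) and 3 were down-regulated (17.2% were), a smaller share than the background in both directions. Again psbY was lower, at 9.28, 8.35 and 12.9 FPKM (log2 fold change −1.87 ± 0.20, adjusted p = 0.0014, edgeR). So were psbP, at 8.81, 5.92 and 13.9 FPKM (−1.33 ± 0.37, adjusted p = 0.032), and psaN, at 0.00, 0.00 and 0.25 FPKM (−4.43 ± 1.00, adjusted p = 0.016). With 3.4 counts against 76.2, psaN again passed the filter through CK 1d. The unigene that rose was psb27, at 8.39, 6.66 and 14.9 FPKM (1.79 ± 0.38, adjusted p = 0.012), with an adjusted p of 0.12 when all 7 groups entered a single fit. The psbP call was lost without CK 1d A or C or CO2+1-MCP 1d A or B (adjusted p 0.060 to 0.10), and the psaN call without CK 1d B or C (0.063 and 0.058). The plastid-encoded unigenes were not called: psbA had 1.17, 0.84 and 3.84 FPKM (log2 fold change 2.76 ± 0.95, adjusted p = 0.063, edgeR) and psbB 0.34, 0.36 and 1.12 (0.71 ± 0.65, adjusted p = 0.44). In both, library C was the highest, and for psbA all 3 libraries were above those of CK 1d.

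Directly between CO2+1-MCP 1d and CO2 1d, edgeR called 0 of 38 members and 0% of 56191 unigenes. At an unadjusted p below 0.05 were 7 members and 4167 of all unigenes. Of 200211 unigenes DESeq2 called 220 higher and 346 lower with 1-MCP. Among the members it called 4, all lower. They were psbA (log2 fold change −3.63 ± 0.62 in edgeR, adjusted p = 0.28, and 1.8e-07 in DESeq2), psbB (−2.96 ± 0.49, 0.27 and 2.5e-05), psbD (−3.55 ± 0.73, 0.35 and 0.00012) and psaA Cluster-16487.215170 (−5.02 ± 1.09, 0.36 and 0.00018). For each of these the highest CO2+1-MCP 1d library was below the lowest CO2 1d library. All 4 were already known to be high in CO2 1d, and psbD and psaA passed the filter here through that group. The lack of overlap is therefore a description only. Without the filter on low counts edgeR called 5 members, among them these 4 (adjusted p 4.5e-07 to 0.00046). It then called 550 unigenes higher and 700 lower of 200211. Leaving out a library gave the 4 an adjusted p of 0.085 to 0.75 (edgeR). The call thus differed between tools and filters, and the log2 fold changes of DESeq2 for psbA (−3.63), psbB (−2.95), psbD (−3.56) and psaA (−5.10) were close to those of edgeR.

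At 4 d, after 3 further days in air, the pattern in CO2 fruit had changed. In CO2 4d against CK 4d, 2 of 28 members tested were up-regulated (4.57% of 63046 unigenes were) and 3 were down-regulated (1.76% were, and 6.33% in either direction), and the median log2 fold change of the members was −0.80 against −0.08 of all unigenes. The plastid-encoded psbA had 0.17, 0.21 and 0.13 FPKM in CO2 4d and 0.34, 0.23 and 0.53 in CK 4d, too few counts to pass the filter, and 0 of the 2 plastid-encoded photosystem II unigenes tested were called.

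Both members that rose were Rubisco small subunit unigenes. Cluster-16487.105600 had 146, 142 and 124 FPKM in CO2 4d against 41.8, 45.2 and 46.6 in CK 4d, and rose by 1.73 ± 0.24 on the log2 scale (adjusted p = 0.024, edgeR). Cluster-16487.115456 had 12.2, 10.7 and 15.7 FPKM against 5.43, 5.67 and 4.90 (1.34 ± 0.22, adjusted p = 0.029). Another, Cluster-16487.170167, went the other way, with 0.57, 0.99 and 0.71 FPKM against 4.80, 4.87 and 3.77 (−2.49 ± 0.45, adjusted p = 0.034). The called unigenes of this small family thus differed in direction. Cluster-16487.170167 had 22.0 counts in CO2 4d against 128 in CK 4d and passed the filter through CK 4d, so its fall is a description only. No library of CO2 4d overlapped CK 4d for any of the 3, which were picked as called.

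Of photosystem I, psaE had 5.53, 16.2 and 12.9 FPKM in CO2 4d against 32.3, 38.4 and 39.5 in CK 4d (log2 fold change −1.64 ± 0.35, adjusted p = 0.046, edgeR), and psaD had 2.40, 4.96 and 4.66 against 12.3, 13.3 and 10.2 (−1.54 ± 0.30, adjusted p = 0.039). For psbO the levels were 2.51, 15.1 and 8.41 FPKM against 46.2, 50.8 and 43.0, a larger difference whose libraries spread more (−2.41 ± 0.55, adjusted p = 0.053). Summed over both psbO unigenes, CO2 4d had 2.97 to 17.6 CPM and CK 4d 48.2 to 57.5. CO2 4d A was the lowest library for psbO, psaE, psaD, psbP and psbY. All 5 calls at 4 d were lost when any CK 4d library or CO2 4d B was left out, with 0 members called and adjusted p of the 5 from 0.058 to 0.18. In each of these settings 0 of all unigenes tested (69118 to 71666) were called, so the loss was not particular to the members. Without CO2 4d A the calls of psaE (0.052), psaD (0.058) and Cluster-16487.170167 (0.059) were lost, as was that of psaE without CO2 4d C (0.062). Over all unigenes 2241 rose and 780 fell without CO2 4d A, and 6311 rose and 3828 fell without C. The log2 fold changes themselves moved by less, from −2.71 to −2.31 for Cluster-16487.170167 and from 1.59 to 1.92 for Cluster-16487.105600.

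The other abundant members passed no test in CO2 1d, CO2+1-MCP 1d or CO2 4d against CK. Of the photosystem II 5 kDa protein, Cluster-16487.138882 had 11.7, 9.96 and 10.8 FPKM in CO2 1d, 12.2, 13.0 and 11.7 in CK 1d, 0.41, 5.20 and 6.88 in CO2 4d and 12.3, 12.2 and 11.6 in CK 4d. All CO2 4d libraries were below CK 4d, with a wide spread (log2 fold change −1.58 ± 0.75, adjusted p = 0.26, edgeR). Its second unigene, Cluster-16487.47185, lay between 0.63 and 4.68 FPKM, psaO (Cluster-16487.184606), a subunit on the antenna-docking side of photosystem I, between 1.39 and 6.75, and the second psbO unigene (Cluster-16487.170686) between 0.37 and 26.6, its highest library again being CK 1d A. The 2 Ycf1 unigenes Cluster-16487.119375 and Cluster-16487.93349, whose Swiss-Prot name is TIC 214, a protein of the plastid import machinery, had at most 3.71 and 2.89 FPKM.

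An interaction test set the CO2 effect of 4 d against that of 1 d. It called 5 members lower at 4 d (7.95% of 78088 unigenes were) and 2 higher (10.3% were) of 44 tested, against 18.2% of unigenes in either direction. The 4 plastid-encoded ones were psbA (difference of log2 fold changes −7.47 ± 0.97, adjusted p = 0.00066, edgeR), psbD (−5.11 ± 0.83, adjusted p = 0.0022), psbB (−3.88 ± 0.73, adjusted p = 0.0048) and psbE (−3.29 ± 0.99, adjusted p = 0.042), and psb27 (−3.52 ± 0.86, adjusted p = 0.017) was the fifth. The 4 were high in CO2 1d and scarce in the other groups of this test, and psbA did not pass the filter at 4 d. Their differences therefore largely restate those of 1 d and are a description only. The 2 that went up were unigenes with an NR hit to CP43 and neither a Swiss-Prot nor an orthology name. Cluster-16487.118614 had 13.8, 10.1 and 10.5 FPKM in CO2 1d, 21.8, 33.8 and 31.8 in CO2 4d, 14.3, 15.6 and 17.3 in CK 1d and 22.5, 16.3 and 18.1 in CK 4d. Cluster-16487.105464, at 5.51, 6.38 and 5.85 FPKM in CO2 1d and 13.6, 18.7 and 14.9 in CO2 4d, differed alike. In CK 1d the latter had 10.2, 9.24 and 8.80 FPKM, and it was called lower in CO2 1d (log2 fold change −0.72 ± 0.19, adjusted p = 0.025, edgeR), a call lost with DESeq2 (0.062) and without each library but CO2 1d A (0.052 to 0.085). Both were far more abundant in CK than the psbD-psbC unigene and moved the other way, so the name CP43 covers unigenes that differ in level and direction.

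In the controls themselves, 0 of 31 members were called in CK 1d against CK 0d (0.068% of 60332 unigenes were in either direction). Over all unigenes 8659 were at an unadjusted p below 0.05, and DESeq2 called 1334 up and 1109 down of 211166. Of the members, 11 were at an unadjusted p below 0.05 and DESeq2 called 5, all up. Several were higher after 1 d of sealing, with much spread: psbO had 18.5, 19.4 and 19.5 FPKM in CK 0d and 110, 45.0 and 77.6 in CK 1d (log2 fold change 2.09 ± 0.32, adjusted p = 0.067, edgeR), and psbP had 5.35, 6.93 and 8.35 against 33.7, 17.0 and 20.7 (1.86 ± 0.30, adjusted p = 0.073). For psaD the levels were 3.54, 5.69 and 7.17 FPKM in CK 0d and 59.8, 15.3 and 32.9 in CK 1d (2.79 ± 0.54, adjusted p = 0.094). No CK 1d library overlapped CK 0d for these 3, and CK 1d A was the highest and B the lowest each time. The comparisons with CK 1d above rest on these control values.

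In CK 4d against CK 0d, 1 of 30 members rose (2.76% of 62794 unigenes did) and 2 fell (1.9% did). The Rubisco small subunit unigenes Cluster-16487.105600 (log2 fold change −1.64 ± 0.17, adjusted p = 0.010, edgeR) and Cluster-16487.115456 (−1.38 ± 0.18, adjusted p = 0.016) fell, from 123, 166 and 108 FPKM in CK 0d to 41.8, 45.2 and 46.6 in CK 4d for the former. In CO2 4d and CO2+1-MCP 4d the level of Cluster-16487.105600 (124 to 146 and 129 to 185 FPKM) lay within or above the range of CK 0d, so that CK 4d was the low group. The rise was psbO, from 18.5 to 19.5 FPKM in CK 0d to 43.0 to 50.8 in CK 4d (1.22 ± 0.10, adjusted p = 0.0058), with an adjusted p of 0.38 when all 7 groups entered a single fit. Leaving out any CK 4d library ended both rbcS calls (0.051 to 0.088), and leaving out CK 0d A or B ended that of Cluster-16487.115456 (0.056 and 0.061).

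At 4 d with 1-MCP, 0 of 29 members were called against CK 4d (0.303% of 64312 unigenes were in either direction, 0.253% higher and 0.0498% lower). At an unadjusted p below 0.05 were 11 members and 8260 of all unigenes. DESeq2 called 3 members, and of 219688 unigenes 1324 higher and 878 lower. Of the members named above, psbO had 11.1, 15.8 and 8.52 FPKM (log2 fold change −2.10 ± 0.32 against CK 4d, adjusted p = 0.068, edgeR) and Cluster-16487.105600 had 135, 185 and 129 FPKM (1.63 ± 0.25, adjusted p = 0.068). Without CO2+1-MCP 4d B, 8 members were called, 3 up and 5 down, where 2245 of all 72647 unigenes tested were called up and 1817 down. Between CO2+1-MCP 4d and CO2 4d, 0 of 24 members were called (0% of 62228 unigenes). At an unadjusted p below 0.05 were 1 member and 3883 of all unigenes. DESeq2 called 1 member, and of 214556 unigenes 180 higher and 1284 lower. The effect of 1-MCP within CO2 did not pass an interaction test between 4 d and 1 d for any of 43 members (0.0271% of 77447 unigenes did, 0.00516% higher and 0.022% lower). At an unadjusted p below 0.05 were 7 members and 7024 of all unigenes. DESeq2 called 3 members, and of 238490 unigenes 410 higher and 863 lower. For psbA the difference was 4.75 ± 0.84 (adjusted p = 0.08, edgeR).

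**Figure D4:**
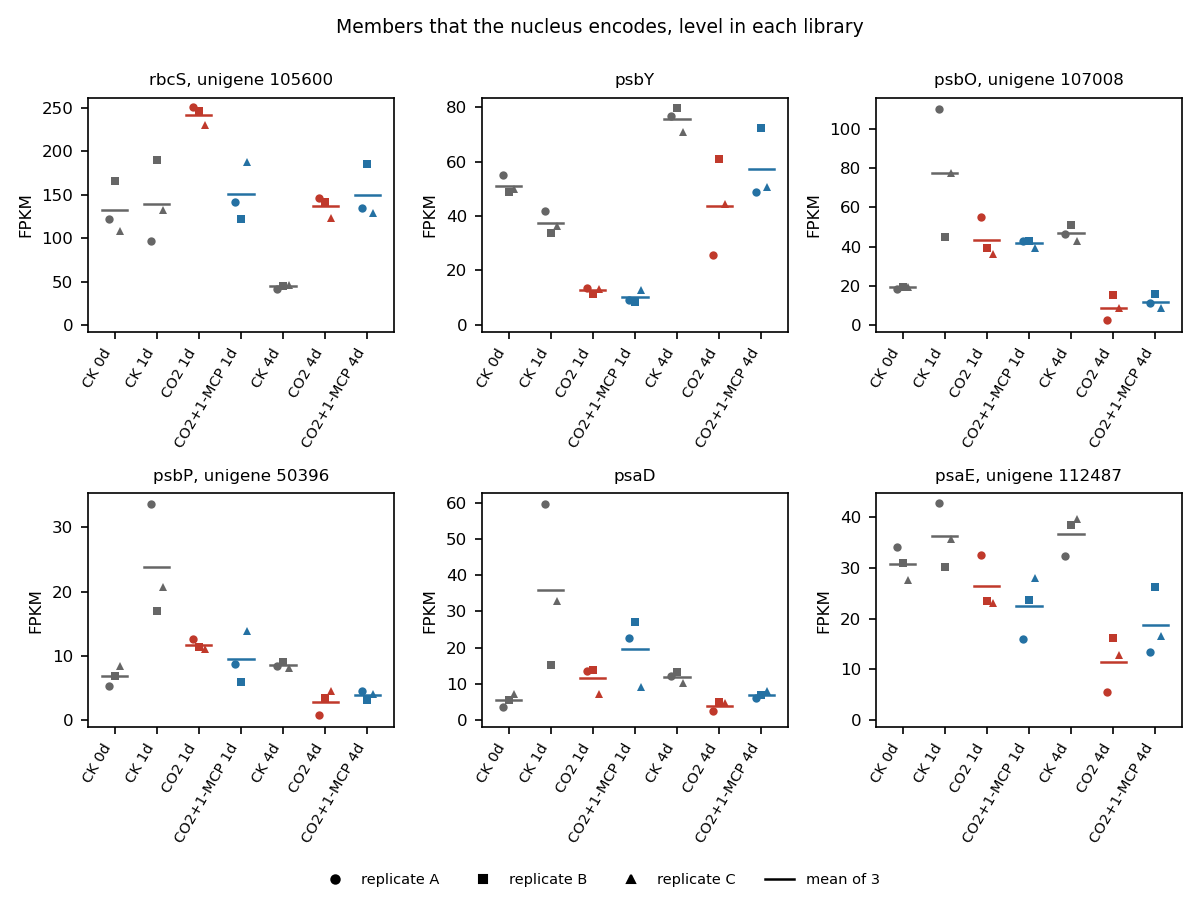
FPKM (y axes, linear, own scale per panel) of 6 nuclear-encoded members in each library, by group (x axes), with symbols for replicates A, B and C and a line at the mean of 3. The psbY unigene is lowest in CO2 1d and CO2+1-MCP 1d, the CK 1d libraries spread widely for psbO, psbP and psaD, and the rbcS unigene is lowest in CK 4d (41.8 to 46.6 FPKM).

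Other unigenes of the photosynthetic apparatus give the context, and their counts in CO2 1d against CK 1d stand beside the 20.9% of all unigenes that rose and the 19.6% that fell. Of 211 further unigenes whose NR description names the chloroplast or plastid, 48 were tested, and 16 rose and 12 fell. As with the members, scarce unigenes that passed the filter through the group in which they were high had to differ. The list also holds genes that are nuclear in other plants, such as a neutral invertase. Among those that rose were 2 unigenes of rbcL, the large subunit of Rubisco, with means of 32.2 FPKM (Cluster-16487.177893, log2 fold change 6.13 ± 0.52, adjusted p = 0.00044, edgeR) and 22.6 FPKM (Cluster-16487.177891, 6.08 ± 0.46, adjusted p = 0.00029) against 0.45 and 0.33 in CK 1d. The maturase gene matK (Cluster-16487.207902) was at 3.99 FPKM in CO2 1d and had 1.2 counts in all of CK 1d (adjusted p = 0.00027). These 2 rbcL unigenes had 20.0 and 27.9 counts in CK 1d, and in CO2+1-MCP 1d they were at 1.71 and 1.69 FPKM. Another rbcL unigene (Cluster-16487.70225) fell, at 0.023 FPKM in CO2 1d against 0.60 in CK 1d (−4.53 ± 0.76, adjusted p = 0.0046, edgeR). It had 2.0 counts against 61.0. Also among those that fell were ycf1 and accD unigenes, such as Cluster-16487.82205 (accD, a subunit of acetyl-CoA carboxylase), at 0.083 against 0.79 FPKM (−3.26 ± 0.40, adjusted p = 0.0015).

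Of 95 antenna unigenes named chlorophyll a-b binding that the rule did not take, 25 were tested in CO2 1d against CK 1d, and 5 rose (20.9% of all unigenes did) and 2 fell (19.6% did), so the risers stood near the background and the fallers below it. The antenna proteins gather light for both photosystems. The LHCB1 unigene Cluster-16487.106249 was at 30.0 FPKM in CO2 1d and 8.80 in CK 1d (log2 fold change 1.72 ± 0.34, adjusted p = 0.0085, edgeR), and at 27.1 FPKM with 1-MCP (1.65 ± 0.41, adjusted p = 0.022). In CO2 4d against CK 4d the LHCA4 unigene Cluster-16487.117159 fell from 89.2 to 30.0 FPKM (−1.54 ± 0.26, adjusted p = 0.030).

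In chlorophyll breakdown, 14 of 26 tested unigenes fell in CO2 1d against CK 1d (19.6% of all unigenes did) and 1 rose (20.9% did), with a median log2 fold change of −1.27 against −0.05 over all unigenes. In CO2+1-MCP 1d 15 of 26 fell (17.2% of all unigenes did) and 0 rose (18.5% did). The 1 that rose was a STAY-GREEN like unigene (Cluster-16487.111770), at 279 against 166 FPKM (0.71 ± 0.16, adjusted p = 0.012, edgeR). The summed level of the list overlapped between CO2 1d (731 to 841 FPKM) and CK 1d (779.0 to 876). Pheophytinase (Cluster-16487.128043), which removes the phytol tail from pheophytin, had 2.26, 2.75 and 2.06 FPKM in CO2 1d against 29.5, 30.4 and 25.7 in CK 1d (−3.63 ± 0.20, adjusted p = 0.00012, edgeR). Pheophorbide a oxygenase (Cluster-16487.119938), which opens the chlorophyll ring, had 1.55, 3.06 and 1.59 FPKM against 14.3, 14.6 and 13.9 (−2.84 ± 0.31, adjusted p = 0.0011). It was 1 of 7 such unigenes that fell. Unigenes of a shared name can be pieces of the same gene and share reads. The 14 and 15 that fell may thus not be independent, and their shares are a description only. At 4 d Cluster-16487.119938 was higher in CO2 than in CK, at 50.2 against 21.3 FPKM (1.35 ± 0.28, adjusted p = 0.044). The list's most abundant unigene, a red chlorophyll catabolite reductase (Cluster-16487.105036), was not called, with 218 ± 31 FPKM in CO2 1d against 267 ± 17 in CK 1d (SD, n = 3; log2 fold change −0.33, adjusted p = 0.20, edgeR).

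In chlorophyll synthesis 7 of 28 rose (20.9% of all unigenes did) and 4 fell (19.6% did) in CO2 1d. Those that rose included the list's most abundant unigene, chlorophyll synthase (Cluster-16487.157605), at 75.7 against 37.0 FPKM (log2 fold change 1.00 ± 0.19, adjusted p = 0.0072, edgeR), and the large subunit of magnesium chelatase (Cluster-16487.28092), at 2.94 against 0.037 (6.22 ± 0.70, adjusted p = 0.0012). Of the other subunits of that enzyme, a ChlI unigene (Cluster-16487.44246) fell, at 2.82 against 5.37 FPKM (−0.98 ± 0.19, adjusted p = 0.0076), and so did a ChlD unigene (Cluster-16487.52776), at 1.91 against 3.99 (−1.09 ± 0.32, adjusted p = 0.035). In electron transport 9 of 27 rose, against 20.9% of all unigenes, and 2 fell, against 19.6%. Among the risers was Cluster-16487.70708, named cytochrome f, at 1.09 against 0.19 FPKM (2.43 ± 0.30, adjusted p = 0.0016). That list's terms also took Rieske proteins named mitochondrial and ferredoxin–NADP reductases named root isozyme, such as Cluster-16487.94182 (91.4 against 52.7 FPKM). Both kinds were among the risers, and a root isozyme unigene (Cluster-16487.94178) was among the fallers. The number of risers therefore does not speak for the photosynthetic chain alone. The list's most abundant unigene was the Rieske iron-sulfur protein of the cytochrome b6-f complex (Cluster-16487.96253), with 83.4 ± 7.5 FPKM in CO2 1d and 81.8 ± 4.3 in CK 1d (SD, n = 3).

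Of the regulators, 3 of 12 tested rose (20.9% of all unigenes did) and 1 fell (19.6% did). The sigma factor unigene Cluster-16487.98078 of the plastid RNA polymerase rose from 7.49 to 17.1 FPKM (log2 fold change 1.16 ± 0.24, adjusted p = 0.010, edgeR). The unigene named GLK1 (Cluster-16487.47094), after an activator of nuclear photosynthesis genes in Arabidopsis, fell from 3.50 to 0.38 FPKM (−3.26 ± 0.35, adjusted p = 0.0010). With 1-MCP, the sigma factor was at 13.4 FPKM (0.86 ± 0.21, adjusted p = 0.021) and the GLK1 unigene at 0.47 (−2.90 ± 0.41, adjusted p = 0.0034).

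Of 10 other Calvin cycle unigenes tested in CO2 1d, 6 rose (20.9% of all unigenes did) and 2 fell (19.6% did). The 6 were all named phosphoribulokinase and had no count in any CK 1d library, so they passed the filter only through the groups in which they were high and had to differ. The most abundant, Cluster-16487.192519, was at 85.7 FPKM in CO2 1d and 102 in CO2+1-MCP 1d and at least 908-fold higher in CO2 1d than the floor of 3 counts over the CK 1d group. A phosphoribulokinase unigene with a persimmon hit (Cluster-16487.69526) fell from 25.8 to 15.2 FPKM (−0.84 ± 0.22, adjusted p = 0.024, edgeR), and so did the list's most abundant unigene, a fructose-1,6-bisphosphatase (Cluster-16487.117138), from 87.1 to 44.3 FPKM (−1.01 ± 0.16, adjusted p = 0.0040).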

How the data were processed

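Persimmon flesh from 7 groups of 3 libraries was analysed by RNA-seq. The authors assembled the paired-end reads with Trinity without a reference genome and deposited, for each library, an estimated count per unigene, not scaled for depth. RSEM is named in the submitters' processing notes, with no version. The authors also deposited FPKM, which are scaled for unigene length and library depth. Between 24.5% and 37.6% of the counts above 0 in a library were not whole, and counts were rounded before testing.

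Each comparison was fitted on its own groups with edgeR 4.0.16 in R 4.3.3 (filterByExpr, TMM, quasi-likelihood F test), and p-values were Benjamini–Hochberg adjusted over all unigenes tested, with calls below 0.05. Interaction contrasts took 4 groups. Standard errors were derived from the fold change and the F statistic. The fit was tested on simulated data with 200 changed unigenes. Levels are descriptions in FPKM, with SD over 3 libraries, and the total counts limit the precision of scarce unigenes. A fold against a group without counts used a floor of 3 counts over the group, which covers counting error only.

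Alternatives were DESeq2 1.42.0, RLE factors, no filter on low counts, a fold above 5, all 7 groups in a single fit, the replicate letter as a block and each library left out. Leaving out the near-identical members, summing unigenes of a shared orthology name and the members' sum in counts per library total were chosen after seeing the data. CPM are per library total unless said to be TMM-scaled. Named were, in each role class, the 3 most abundant members with a mean of at least 10 counts and, in each comparison, the 3 highest and 3 lowest called log2 fold changes, plus the most abundant unigene of each pathway list. Other genes named, among them the remaining called members and those of the lists, were chosen after their values were seen. The members, their rule and all lists were chosen with earlier results of these data known, and the role classes and the antenna and plastid lists were made after reading the annotation. Pathway lists were matched on NR descriptions. No sequences were used here.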

Additional observations from a re-analysis of the deposited data

Results flagged for a closer look

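A test of the difference between the effects of CO2 (CO2 against CK) at 4 d and at 1 d was passed by 7 members. The difference of log2 fold changes, 4 d minus 1 d, was −7.47 for psbA, −5.11 for psbD, −3.88 for psbB, −3.29 for psbE and −3.52 for psb27, and 1.16 and 1.09 for the unigenes Cluster-16487.105464 and Cluster-16487.118614, which are named CP43 by their NR hit alone. The differences of psbA, psbB and psbD passed under every alternative run for them. As these were high in CO2 1d and scarce in the other groups, each refit largely restates the same difference at 1 d. That of psbE was lost without any library but CO2 1d B or CO2 4d A (adjusted p 0.069 to 0.11, edgeR), that of Cluster-16487.118614 without any but CK 4d A, CO2 1d A, CO2 4d A or CO2 4d C (0.057 to 0.091), and that of Cluster-16487.105464 without CK 4d C (0.053). With all 7 groups in a single fit the adjusted p of psb27 was 0.064. Groups of 3 libraries were too small for a search for single outlying libraries.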

How the results depend on the processing

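Of the values recomputed for named unigenes, 327 kept their side of the threshold, 125 lost a call, 8 gained one and none changed direction. DESeq2 called 5 members in CK 1d against CK 0d, 6 in CK 4d against CK 0d, 4 in CO2+1-MCP 1d against CO2 1d, 3 in CO2+1-MCP 4d against CK 4d, 1 in CO2+1-MCP 4d against CO2 4d, 14 in the interaction of CO2 with time and 3 in that of 1-MCP. Over all unigenes it called, in that order, 1334, 2710, 220, 1324, 180, 11749 and 410 higher. Lower were 1109, 2042, 346, 878, 1284, 11361 and 863. Without the filter on low counts 4, 5, 2 and 1 members were called in CK 1d against CK 0d, CO2+1-MCP 1d against CO2 1d, CO2+1-MCP 4d against CK 4d and CO2+1-MCP 4d against CO2 4d, and 2 in the 1-MCP interaction. Over all unigenes 337, 550, 496, 611 and 244 were called higher and 278, 700, 206, 2057 and 851 lower. With all 7 groups in a single fit 3 members were called in CO2+1-MCP 4d against CK 4d and 1 against CO2 4d. Of all 90891 unigenes in that fit, 1135 and 93 were called higher and 435 and 1405 lower. With a fold above 5 as a second limit, 0 members remained called in CK 4d against CK 0d, 8 in CO2 1d and 1 in CO2+1-MCP 1d against CK 1d, and 1 in CO2 4d against CK 4d. Over all unigenes 860, 6513, 5515 and 1773 remained higher and 188, 5533, 4940 and 672 lower, in that order. With the replicate letter as a block, the member counts were 0, 7, 2 and 0 in the same order. Over all unigenes 0, 8171, 6922 and 0 were called higher and 0, 6706, 5359 and 0 lower. In 0 of 8 pairs of groups were all letters' deviations correlated above 0.1 (−0.076 to 0.355), and the main fits did not pair libraries by letter. That rule cannot speak on a single letter: B and C of CO2+1-MCP 4d against CO2 4d reached 0.355 and 0.292, and the C libraries shared Gossypium and Solanum hits. Whether the C libraries form a batch was not tested.

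Leaving out a library gave 1 to 3 member calls in CK 4d against CK 0d, 9 to 15 in CO2 1d and 2 to 5 in CO2+1-MCP 1d against CK 1d, 0 to 5 in CO2 4d and 0 to 8 in CO2+1-MCP 4d against CK 4d, 5 to 9 in the CO2 interaction and 0 to 1 in that of 1-MCP. Over all unigenes, in that order, 113 to 697, 10483 to 12595, 8150 to 10540, 0 to 6311, 0 to 2245, 5647 to 8584 and 0 to 28 were called higher. Lower were 72 to 429, 8351 to 12060, 6447 to 10671, 0 to 3828, 0 to 1817, 4563 to 6735 and 0 to 244. The members' summed FPKM in CO2+1-MCP 4d was 1.21 times that in CK 4d, 1.11 times in CPM of the library total and 1.01 times in TMM-scaled CPM. The cause of these shifts was not tested. Most members had too few counts for any test at this depth.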
